A study of Mus musculus with 8 samples.

Results

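The contacts of chromatin with the nuclear lamina were compared before and after adipogenesis of 3T3-L1 cells, an established mouse fibroblast line that turns into fat cells in culture. The 2 conditions compared were taken from 4 in the series and rest on 4 of its 8 libraries, 1 LaminB1-Dam and 1 Dam library each. Preadipocytes were 3T3-L1 cells at day 0, labelled untreated, with no shRNA and no inducing medium, that expressed Dam or LaminB1-Dam from lentivirus. Adipocytes were 3T3-L1 cells with a control non-target shRNA, induced with insulin, dexamethasone, IBMX and rosiglitazone, transduced with the same viruses at day 6 and harvested at day 9, with the length of transduction given differently by the labels and the methods. Differentiation, the shRNA vector and the time of transduction therefore differ together between the conditions and cannot be told apart. Neither condition was repeated, which leaves every value without an error between cultures, and no difference was tested.

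DamID fuses the bacterial adenine methylase Dam to a protein of interest, and here the fusion to LaminB1, a filament protein under the inner nuclear membrane, leaves methylated GATC sites in DNA that comes near the lamina. Free Dam reports how accessible the DNA is. Runs of sequence with a high ratio of the fusion to free Dam are lamina associated domains (LADs), which are mostly gene-poor and hold many silent, tissue-restricted genes. In differentiation some genes needed by the new cell type leave LADs and some genes of other lineages enter them. Adipogenesis is driven by factors such as PPARγ and C/EBPα and ends in a cell that takes up fatty acids and glucose, stores triglyceride and secretes hormones.

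The authors deposited 1 list of LADs per condition. Each of 22367 protein-coding genes on 21 chromosomes (mouse mm9, GENCODE vM1) was placed by its annotated start site. A gene in a LAD of the preadipocyte list only is called released here, a gene in a LAD of the adipocyte list only is called recruited, and the others are in both lists or in neither. These words name membership of the lists and nothing more. By start site 882 genes (3.94%) were released, 412 (1.84%) were recruited, 4336 (19.4%) were in both lists and 16737 (74.8%) in neither. By any overlap of the gene body 1076 genes (4.81%) were released, 420 (1.88%) recruited, 4789 (21.4%) in both and 16082 (71.9%) in neither. Those shares are the background for every gene list below.

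Both readings placed most genes alike. Of the 882 genes released by start site, 743 had no overlap with an adipocyte LAD anywhere in the body, and the other 139 had part of it in one. Of the 412 recruited genes, 294 had no overlap with a preadipocyte LAD and 118 did. A further 333 genes had a start outside LADs in both lists and a body that met a preadipocyte LAD only, and 126 had a body that met an adipocyte LAD only. The whole body went from inside a LAD to fully outside for 469 released genes, and from fully outside to inside for 235 recruited genes.

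In the lists as deposited, released and recruited sequence were close in length and differed in the number of genes. Stretches in the preadipocyte list only summed to 120 Mb and stretches in the adipocyte list only to 125 Mb. Released stretches held 7.35 gene starts per Mb and recruited stretches 3.28. If LADs under 100 kb were left out, the gene counts were closer (578 released and 493 recruited) and the lengths were not (88.4 Mb and 138 Mb), at 6.54 and 3.57 starts per Mb. In the deposited lists sequence in both held 4.04 starts per Mb, and sequence in neither held 12.7. Released stretches thus lay between sequence in LADs throughout and the rest of the genome. Without receptor and clone-named genes the values were 5.55 for released, 2.29 for recruited, 1.71 for both lists and 10.9 for neither, so recruited stretches were below sequence in both lists with all genes and above it without these. Of 3199 released stretches 674 (21.1%) held a gene start, against 328 of 3052 recruited stretches (10.7%).

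Base composition separated released from recruited stretches in the same direction as gene density, and recruited stretches lay just above sequence in both lists. The GC content was 42.4% in released stretches, 39.5% in recruited stretches, 39.3% in sequence in both lists and 44.03% between LADs. CG dinucleotides, the sites of DNA methylation that cluster at many promoters, numbered 8.81, 6.40, 6.12 and 10.4 per kb in that order. The density of GATC, which sets how finely DamID can read a region, differed less, with 2.51, 2.45, 2.61 and 2.42 sites per kb. Among recruited stretches those inside adipocyte LADs had the lowest GC content, 38.7%.

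**Figure D1:**
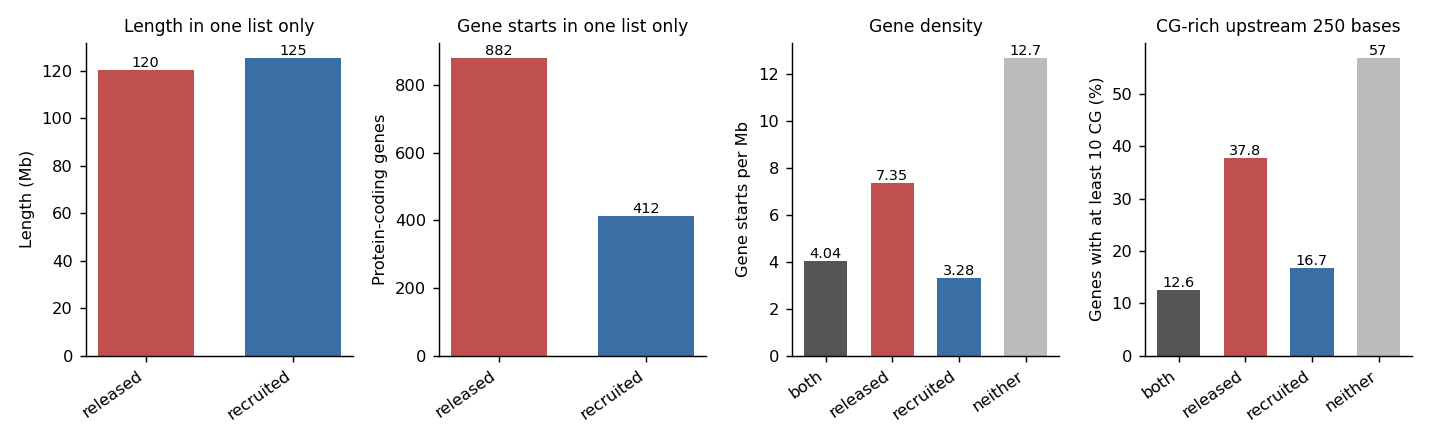
Length and protein-coding gene starts in one list only, gene starts per Mb and the share of genes with at least 10 CG in the 250 bases before the start, by LAD state (1 list per condition, no error bars because nothing was repeated). Released and recruited stretches sum to 120 and 125 Mb, and released stretches hold more gene starts per Mb and more CG-rich promoters than recruited ones.

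Promoters were read in the 250 bases before each annotated start. The median number of CG was 6 (quartiles 2 and 16) for released genes, 3 (1 and 7) for recruited genes, 2 (1 and 4) for genes in both lists and 12 (5 and 20) for genes in neither. At least 10 CG were found for 333 released genes (37.8%) and for 69 recruited genes (16.7%), against 46.9% of all genes. Without olfactory and vomeronasal receptor genes and genes with a clone name the shares were 45.04% for released, 20.6% for recruited, 24.4% for genes in both lists and 60.1% for genes in neither. A GATC site stood in the window of 41.6% of released and 43.2% of recruited genes, close to the 40.2% of all genes.

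These windows are shown for 2 released and 3 recruited genes whose LADs are described below, to let the contrast in CG content be read directly. All are mm9, written 5′ to 3′ on the strand of the gene and ending at the base before the annotated start, with CG in capitals. Pck1 (chr2:172978299-172978548, plus strand) and Fh1 (chr1:177555767-177556016, minus strand) were released. Myf5 (chr10:106923191-106923440, minus strand), Mmp8 (chr9:7558179-7558428, plus strand) and Fam135b (chr15:71558269-71558518, minus strand) were recruited.
Pck1: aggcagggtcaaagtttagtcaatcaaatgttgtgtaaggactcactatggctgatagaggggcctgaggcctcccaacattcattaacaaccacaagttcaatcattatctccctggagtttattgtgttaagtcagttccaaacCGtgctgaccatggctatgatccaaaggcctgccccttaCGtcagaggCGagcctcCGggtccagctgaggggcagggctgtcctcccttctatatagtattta
Fh1: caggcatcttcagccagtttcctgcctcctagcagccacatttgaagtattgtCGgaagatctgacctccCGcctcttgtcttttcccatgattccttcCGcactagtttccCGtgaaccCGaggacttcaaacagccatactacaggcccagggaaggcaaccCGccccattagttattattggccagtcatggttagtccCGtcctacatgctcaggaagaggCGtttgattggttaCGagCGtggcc
Myf5: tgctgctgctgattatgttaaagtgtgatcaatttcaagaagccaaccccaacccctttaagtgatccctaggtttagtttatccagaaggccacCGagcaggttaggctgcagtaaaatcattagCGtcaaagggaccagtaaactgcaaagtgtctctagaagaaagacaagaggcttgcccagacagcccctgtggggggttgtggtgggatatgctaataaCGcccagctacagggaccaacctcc
Mmp8: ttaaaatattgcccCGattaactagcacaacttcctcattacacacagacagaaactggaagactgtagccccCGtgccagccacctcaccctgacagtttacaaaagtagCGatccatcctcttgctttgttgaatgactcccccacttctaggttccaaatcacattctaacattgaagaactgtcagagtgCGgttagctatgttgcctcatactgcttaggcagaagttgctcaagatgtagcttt
Fam135b: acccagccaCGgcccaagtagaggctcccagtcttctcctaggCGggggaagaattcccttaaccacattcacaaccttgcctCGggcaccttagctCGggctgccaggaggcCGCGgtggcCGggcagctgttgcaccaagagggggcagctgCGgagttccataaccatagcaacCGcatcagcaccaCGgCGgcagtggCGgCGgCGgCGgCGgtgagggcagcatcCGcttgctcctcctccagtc
The windows hold 4 CG for Pck1 and 10 for Fh1, and 3 for Myf5, 4 for Mmp8 and 17 for Fam135b. These single promoters do not follow the shares over all genes, since the recruited gene Fam135b has the most.

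Borders of LADs fall at GATC, since a fragment between such sites is the smallest unit of the assay. A GATC lay within 4 bases on either side of the border for 98.3% of borders in the preadipocyte list and 97.3% in the adipocyte list. The borders of the stretches that hold Cd36 and Myf5 are shown with GATC in capitals, on the plus strand of mm9, with the border in the middle of each 40 bases (chr5:17283590-17283629, chr5:17512316-17512355, chr10:106871056-106871095 and chr10:106954915-106954954).
Cd36 stretch, left border: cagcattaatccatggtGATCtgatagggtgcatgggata
Cd36 stretch, right border: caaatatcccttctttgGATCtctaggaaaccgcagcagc
Myf5 stretch, left border: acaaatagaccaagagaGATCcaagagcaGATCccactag
Myf5 stretch, right border: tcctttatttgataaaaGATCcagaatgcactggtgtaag
Each of them cuts through a GATC, so the edges of these stretches are exact only to the nearest fragment.

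Where a stretch lay relative to the rest of its LAD differed between the directions. A stretch was called edge when it touched sequence in both lists on 1 side, internal when it did so on 2 sides, and whole LAD when it touched none. Released stretches comprised 1584 edges (49.5%), 480 internal gaps (15.005%) and 1135 whole LADs (35.5%). Recruited stretches comprised 1403 edges (46.0%), 1183 internal ones (38.8%) and 466 whole LADs (15.3%). By length the contrast was larger, since whole LADs made up 50.7% of the released sequence (60.8 Mb), and internal stretches 46.1% of the recruited sequence (57.9 Mb). Adipocyte LADs thus gained sequence mostly by closing gaps and moving edges, and preadipocyte LADs lost it mostly by disappearing or by receding edges.

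Gene starts showed the same split. Of 882 released starts, 449 (50.9%) lay in a LAD that vanished whole, 356 (40.4%) at an edge and 77 (8.73%) in an internal stretch. Of 412 recruited starts, 52 (12.6%) lay in a LAD that appeared whole, 181 (43.9%) at an edge and 179 (43.4%) in an internal stretch. With LADs of at least 100 kb only, whole LADs held 22.1% and internal stretches 20.3% of recruited starts, so the order of these classes turned, and internal stretches held 3.63% of released starts. Within every class released stretches were richer in gene starts, with 7.68 against 4.04 per Mb at edges, 6.00 against 3.09 internally and 7.38 against 2.28 in whole LADs. The LAD that held a released start had a median length of 100.4 kb, and the LAD that held a recruited start one of 544 kb.

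**Figure D2:**
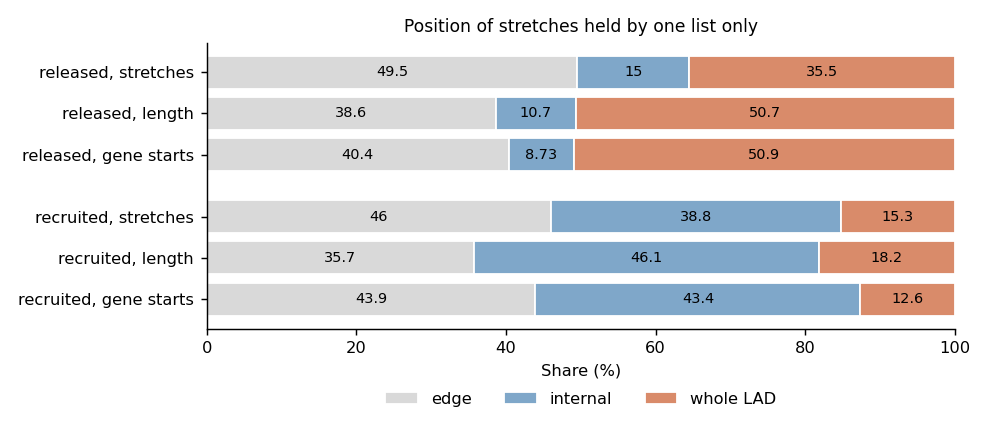
Share of stretches, of their length and of the gene starts in them that were edge, internal or whole LAD, for released and recruited sequence (shares of 3199 and 3052 stretches and of 882 and 412 starts). Whole LADs take 50.9% of released starts and 12.6% of recruited starts, and internal stretches 8.73% and 43.4%.

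LADs were also followed one by one. Of 3914 preadipocyte LADs, 1135 met no adipocyte LAD, 2405 met 1 and 374 met 2 or more, up to 6. Of 2542 adipocyte LADs, 466 met no preadipocyte LAD, 1507 met 1 and 569 met 2 or more, up to 16. There were 864 pairs of LADs that met each other and no other LAD. Of their 1728 borders, 128 were identical, 699 lay further out in adipocytes (median 12.6 kb) and 901 further in (median 17.5 kb). Shifts of at least 50 kb numbered 100 outward and 154 inward.

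The distance of a switched start from a border was measured next. The depth of a switch was taken as the smaller of the distance from the start to the border of the LAD that held it and the distance to the nearest LAD of the other list. Its median was 12.5 kb for released genes (quartiles 5.43 and 26.0) and 11.04 kb for recruited genes (4.50 and 22.5). A depth of at least 10 kb was reached by 498 released and 226 recruited genes, and one of at least 50 kb by 47 and 34. The depth is bounded by the length of the stretch. The distance to the nearest LAD of the other list alone had a median of 64.6 kb for released and 19.6 kb for recruited genes.

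Gene length differed between the states. The median length was 19.1 kb for released genes (quartiles 4.30 and 63.4), 11.996 kb for recruited genes (2.76 and 54.6), 5.04 kb for genes in both lists and 17.7 kb for genes in neither. Without receptor and clone-named genes the medians were 27.7 kb, 22.6 kb, 24.0 kb and 20.3 kb. Longer bodies meet any list more often, so lengths are given by start site.

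The share of preadipocyte LAD starts that were released was 16.9% over all genes (882 of 5218, 95% Wilson interval 15.9 to 17.9). Such intervals cover the counting of genes only, which are not independent of their neighbours. By length it was 9.94% under 5 kb, 19.7% from 5 to 20 kb, 25.8% from 20 to 50 kb, 30.8% from 50 to 100 kb, 27.4% from 100 to 300 kb and 9.82% at 300 kb or more. Genes of medium length therefore left LADs most often, and the shortest and the longest stayed. The recruited share of starts outside preadipocyte LADs was 2.40% over all genes (412 of 17149, 2.18 to 2.64) and ran the other way, from 4.04% under 5 kb through 1.60%, 1.69%, 1.87% and 3.37% to 9.09% at 300 kb or more. Without receptor and clone-named genes the same shapes were seen, with 19.6%, 29.1%, 33.3%, 34.4%, 30.4% and 10.2% released and 2.99%, 1.36%, 1.37%, 1.78%, 3.01% and 9.66% recruited.

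**Figure D3:**
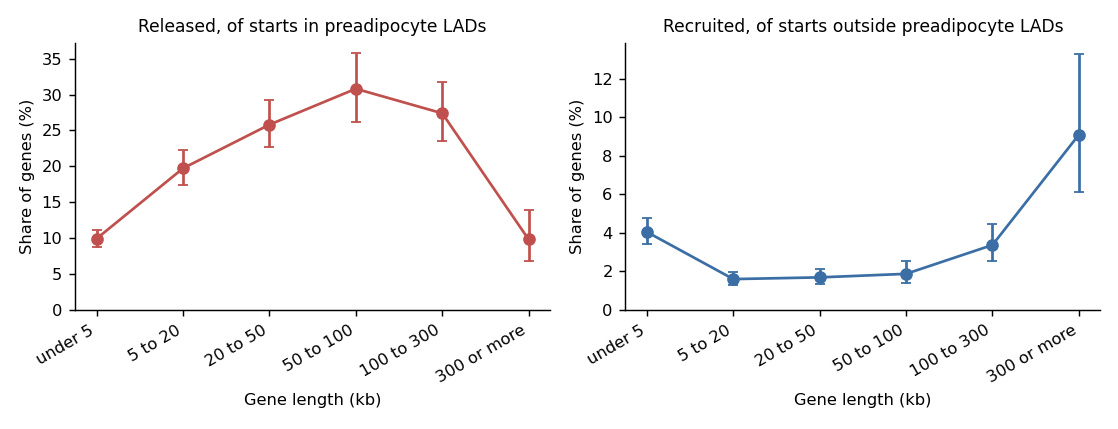
Share of protein-coding genes released (left, of starts in preadipocyte LADs) and recruited (right, of starts outside them) by gene length in kb, where bars are 95% Wilson intervals over genes and hold no error between cultures. The released share is highest at 50 to 100 kb, 30.8%, and the recruited share at 300 kb or more, 9.09%.

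The longest genes rarely moved whole, and those named next were chosen after their values had been seen. All but 2 of the 23 recruited genes of at least 300 kb already had part of the body in a preadipocyte LAD. Il1rapl1, a synaptic adhesion receptor of 1375 kb, had 66.2% of its body in preadipocyte LADs and 100% in adipocyte LADs. Pcdh9, a protocadherin of 873 kb, went from 53.8% to 93.1%, and Syt1, the calcium sensor of synaptic vesicles, from 38.8% to 77.3%. In the other direction Rora, a nuclear receptor of 734 kb that acts in the circadian clock, went from 72.0% to 6.46%, and Pde7b, a cAMP phosphodiesterase of 327 kb, from 94.3% to 5.06%.

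Some bodies moved while the start did not, and the examples were again chosen by their values. At least 50 percentage points of the body were lost by 759 genes and gained by 386, and among these the start was in neither list for 110 and 35 and in both for 38 and 47. Esrrg, an orphan nuclear receptor of 606 kb, had its start in both lists and its body share went from 91.3% to 26.3%. Slit2, a secreted axon guidance factor of 323 kb, had its start in neither list and its body share went from 8.15% to 72.7%. For Grik2, a kainate receptor subunit of 689 kb, start and body pointed in opposite directions, with a released start and a body share that went from 11.01% to 94.7%.

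The genes that define the adipogenic programme were outside LADs in both conditions. All 24 adipogenic transcription factors found, among them Pparg, Cebpa, Cebpb and Srebf1, and all 27 entries for inhibitors of adipogenesis, among them Gata2, Gata3, Dlk1 and Wnt10b, had their start in neither list. The same held for all 72 cell cycle genes. Of this first list Nfia alone had a body that met a LAD, with 15.2% in preadipocytes and 0% in adipocytes. The 6 adipocyte markers Adipoq, Fabp4, Plin1, Cidec, Lep and Retn and the 6 markers of preadipocytes and fibroblasts Dlk1, Pdgfra, Pdgfrb, Thy1, Col1a1 and Ly6a also lay outside LADs in both lists, so the lists do not mark either cell type by these genes. Of 31 marker gene entries of 6 cell types, Runx2 having 2, none was released or recruited by start, and 3 were in both lists (Myh2, Tek and Emr1). By gene body Myh2, a fast myosin, went from 24.1% to 92.6%, Tek, an endothelial receptor, from 100% to 55.03%, and Kdr, another, from 57.6% to 0%. Nuclear envelope genes, 29 in all, were in neither list except Syne1, which was in both.

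Of 24 genes of fat metabolism with a start in a preadipocyte LAD, 14 were released. The lists of lipid droplet and adipokine genes, fatty acid and triglyceride synthesis, fatty acid oxidation and citric acid cycle, oxidative phosphorylation, insulin signalling and thermogenic genes hold 280 genes together. They were joined after their values had been seen. By start, 14 of them (5%) were released and none was recruited, beside 3.94% and 1.84% of all genes, so the released share is near the background. By gene body the counts were 15 and 1. The 14 released were 58.3% of the 24 with a start in a preadipocyte LAD (38.8 to 75.5). Beside them stood 16.9% of all genes and 26.6% of genes without receptor and clone-named ones. With LADs of at least 100 kb, 9 genes of these lists were released. Of the 14 starts, 8 lay in LADs that vanished whole, 5 at edges and 1 in an internal stretch. The lists were drawn up with results of these data known and hold genes the study discusses, so the count is not independent evidence.

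Fatty acid uptake and storage was led by Cd36. Cd36, the fatty acid translocase of the plasma membrane (ENSMUSG00000002944.8, chromosome 5, 17287508 to 17394777, minus strand), had 100% of its 107 kb body in a preadipocyte LAD of 229 kb and 0% in adipocyte LADs. That LAD vanished whole, and the start lay 111 kb inside its border and 174 kb from the nearest adipocyte LAD. Rbp4, the plasma carrier of retinol secreted by fat and liver, lay whole in a LAD of 57.2 kb on chromosome 19 that also vanished. Itln1, Lepr and Retnla stayed in both lists and the other 31 of 36 lipid droplet and adipokine genes had their start in neither.

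Elovl2, Elovl4 and Pck1 were released from the synthesis list, and they were the only 3 of its 41 genes with a start in a preadipocyte LAD. Pck1 encodes an enzyme of the pathway that makes glycerol-3-phosphate for triglyceride from pyruvate in fat cells. The gene (chromosome 2, 172978549 to 172984774, plus strand) lay in the middle of a LAD of 92.7 kb that vanished. Its start was 38.6 kb from the border of that LAD and 236 kb from the nearest adipocyte LAD. Elovl4 and Elovl2, elongases of very long chain polyunsaturated fatty acids, lay whole in LADs of 102 kb and 53.1 kb that vanished. The core enzymes Acaca, Fasn, Acly, Scd1 and Dgat2 had their start in neither list.

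In mitochondrial energy metabolism few genes were near the lamina at all. Fh1, the fumarate hydratase of the citric acid cycle, was the only 1 of 48 oxidation and citric acid cycle genes with a start in a preadipocyte LAD, and it was released from the inside of a LAD of 737 kb by a gap of 59.9 kb. Its start lay 16.6 kb from the nearest adipocyte LAD. Among 88 genes matched as oxidative phosphorylation, Ndufaf4 and Cox8c were released at edges, with depths of 4.48 kb and 10.5 kb. Ndufaf4 is an assembly factor of complex I and not a subunit, and Cox8c is an isoform of cytochrome oxidase restricted to testis.

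Insulin signalling contributed 3 of 42 genes (7.14%, beside 3.94% of all genes), and 5 of the 42 had a start in a preadipocyte LAD. Pde3b, the phosphodiesterase through which insulin restrains lipolysis, had 60.0% of its body in a LAD of 86.1 kb that vanished. Slc2a12, an insulin-responsive glucose transporter, had 76.1% of its body in preadipocyte LADs and a depth of 45.1 kb. Grb10, an adaptor that inhibits the insulin receptor, had 33.3%. All 3 had 0% in adipocyte LADs, and their functions point in different directions.

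Of 28 brown fat genes 3 were released by start (10.7%) and 2 by gene body (7.14%), beside 3.94% and 4.81% of all genes. Only 5 of the 28 had a start in a preadipocyte LAD. Prdm16, the coregulator that sets the brown fat programme, had its start in a released edge with a depth of 48.6 kb, although only 21.7% of its 321 kb body lay in a preadipocyte LAD. Lhx8, a homeobox factor used as a brown fat marker, lay whole in a LAD of 286 kb that vanished. Bmp7, a ligand that promotes brown fat, lay whole in preadipocyte LADs and kept 57.1% of its body in adipocyte LADs. Zic1 and Dio2 were in both lists, and Ucp1 and Ppargc1a in neither.

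**Figure D4:**
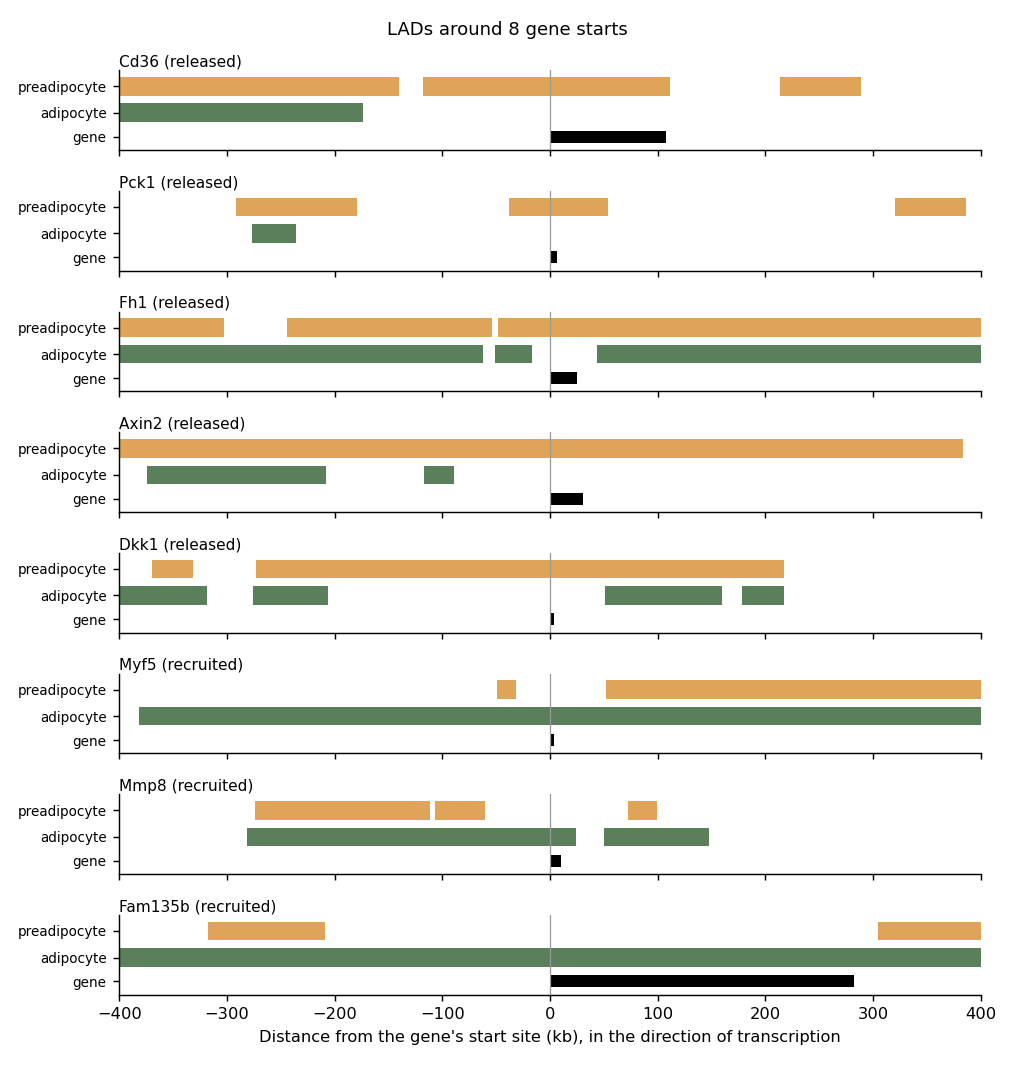
LADs of the preadipocyte and adipocyte lists within 400 kb of the start sites of 8 genes, drawn by distance from the start in the direction of transcription, with the gene body in black. Cd36 and Pck1 lie in LADs that are absent from the adipocyte list, Fh1, Axin2 and Dkk1 in parts lost from longer LADs, and Myf5 and Fam135b in adipocyte LADs that span a preadipocyte gap.

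Signalling genes had more released than recruited members, as all genes together did. Over 201 genes of the Wnt, BMP and TGF-beta, and FGF and growth factor lists, joined after their values had been seen, 13 were released (6.47%) and 2 recruited (0.995%). Of the 30 with a start in a preadipocyte LAD those 13 were 43.3% (27.4 to 60.8), beside 16.9% of all genes and 26.6% without receptor and clone-named ones. With LADs of at least 100 kb, 9 genes of these lists were released, and 7 of the 13 kept their state. The lists were drawn up with results of these data known, so the count is not independent evidence. In the Wnt pathway Axin2, a scaffold of the β-catenin destruction complex and feedback inhibitor, lay whole inside a LAD of 850 kb on chromosome 11, of which 473 kb were released around it, and its start was 89.4 kb from the nearest adipocyte LAD. Dkk1, a secreted inhibitor of the Wnt coreceptor LRP6, was released as part of an internal stretch of 258 kb on chromosome 19 with a depth of 51.2 kb. Rspo4, a secreted enhancer of Wnt signalling, was released with 18.4% of its body. Wif1, which binds Wnt ligands outside the cell, was recruited when its body share went from 56.3% to 100%. Sostdc1, an antagonist of Wnt and BMP ligands that stood outside these lists, was among the deepest released genes, 111 kb from the nearest border.

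In the BMP and TGF-beta list 5 of 68 genes were released (7.35%) and Bmp15, an oocyte growth factor, was recruited (1.47%). Over all genes the shares were 3.94% and 1.84%. Nog and Gdf6, a BMP antagonist and a BMP ligand, lay whole in edges that were released, with depths of 26.2 kb and 17.5 kb. Acvr1c, the receptor ALK7 that is abundant in mature fat cells, had its start in a LAD of 97.6 kb that vanished, 43.9 kb from the border. That LAD held 59.3% of its body, and a different part, 36.1%, lay in adipocyte LADs. Bmp5 was released with 19.6% of its body. In the growth factor list Kit, Fgf9, Fgf10, Fgf16 and Igfbp2 were released (5 of 68, 7.35%) and none was recruited. Fgf10, which promotes preadipocyte growth, had 14.6% of its body in a LAD of 79.8 kb that vanished, and Kit, a receptor tyrosine kinase of stem cells, kept 89.1% of its body in adipocyte LADs.

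Muscle genes went in both directions. Of 84, 3 were released and 5 recruited by start (3.57% and 5.95%), beside 3.94% and 1.84% of all genes. By gene body 4 were released and 3 recruited. The list was drawn up with results of these data known. It holds Ano5 and Unc13c, which the study names as recruited in this system, so the recruited count is not independent evidence. Myf5 and Myf6, the myogenic regulatory factors that sit side by side on chromosome 10, were outside preadipocyte LADs and wholly inside an adipocyte LAD of 2013 kb, in an internal stretch of 83.9 kb. They share that stretch and are not separate cases. Myf5 (chromosome 10, 106919964 to 106923190, minus strand) had a depth of 31.7 kb and Myf6 of 23.2 kb. Myh4, a fast skeletal myosin, was recruited when its body share went from 38.1% to 100%. Ano5, an anoctamin mutated in muscular dystrophy, went from 43.9% to 100%, and Unc13c, a vesicle priming protein best known from synapses that the study discusses with muscle genes, from 54.1% to 100%.

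The 3 released muscle genes were sarcomere genes. Myl1, a myosin light chain, Mybpc1, a myosin binding protein, and Actn2, an α-actinin of the Z disc, had 100%, 100% and 82.4% of the body in LADs that vanished whole. Myod1, Myog, Myh1 and Ckm had their start in neither list, and Ttn, Dmd and Mef2c in both.

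Matrix proteases had recruited starts and no released ones. Of 83 metalloprotease and TIMP genes, 7 were recruited (8.43%) and none released, beside 1.84% and 3.94% of all genes. By gene body 6 were recruited and 2 released. Of them Mmp10, Mmp8, Mmp27, Mmp20 and Mmp7, are neighbours in the collagenase cluster on chromosome 9 and share 2 adipocyte LADs, so they are not separate cases. Mmp8, the neutrophil collagenase (chromosome 9, 7558429 to 7568486, plus strand), went from 0% to 100% of its body, as did Mmp10, Mmp27 and Mmp7, and Mmp20, the enamel protease, went from 58.6% to 100%. Mmp12, Mmp1a and Mmp1b of the same cluster were in both lists. Mmp16, a membrane-type protease of 266 kb on chromosome 4, had its whole body in an internal stretch of 314 kb that was recruited. Adam22, a catalytically inactive member that binds synaptic ligands, went from 48.9% to 93.5%. Structural matrix genes, 90 in all, had 2 released members, Thbs4 and Mfap5, and none recruited by start, while by gene body 1 was released and 3 were recruited.

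Neuronal genes appeared in both directions. Over 457 genes of the ion channel, neurotransmitter receptor, synaptic adhesion, axon guidance and cadherin lists, 30 were released (6.56%) and 27 recruited (5.91%), beside 3.94% and 1.84% of all genes. Of them 165 (36.1%) had their start in a preadipocyte LAD, and the 30 released were 18.2% of those (13.04 to 24.8), beside 16.9% of all genes and 26.6% without receptor and clone-named ones. With LADs of at least 100 kb the counts were 21 released and 31 recruited, so which direction was the larger depends on that setting. With gaps under 50 kb closed they were 33 and 20, and 17 of the 27 recruited genes kept their state. Ion channels had 16 released (9.52%) and 9 recruited (5.36%) of 168, and neurotransmitter receptors 10 (10.3%) and 4 (4.12%) of 97. By gene body the counts were 17 and 8 for channels and 6 and 1 for receptors. Of starts in preadipocyte LADs the released share was 33.3% for channels and 22.2% for receptors, on either side of the 26.6% above. Kcna2, a voltage-gated potassium channel, was released at an edge with a depth of 62.0 kb, and Kcna4 of the same family was recruited with one of 78.4 kb. Scn9a, a sodium channel of sensory neurons, and Kcnj3, an inward rectifier, had whole bodies of 155 kb and 162 kb recruited. Kcnk2, a background potassium channel of 136 kb, was the longest gene whose whole body was released.

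Cadherins and axon guidance genes had more recruited than released starts. Of 59 cadherins and protocadherins 8 were recruited (13.6%) and 1 released (1.69%), and by gene body 5 and 2. Among the 6 deepest of those 8, Pcdh17 went from 0% to 100% of its body, Pcdh7 from 57.2% to 97.7%, and Pcdhb3, Pcdhb4 and Pcdhb5 are neighbours on chromosome 18 that share 1 stretch of 34.2 kb. With Pcdhb6 they form a recruited run of 4 genes, so they are not separate cases. Of 73 axon guidance genes 4 were recruited (5.48%) and Unc5a released (1.37%) by start, beside 1.84% and 3.94% of all genes. By gene body 5 were recruited and 5 released. Epha7, an ephrin receptor, had its whole body of 154 kb recruited, and Sema3e, a semaphorin, went from 17.2% to 96.2%.

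Most olfactory and vomeronasal receptor genes were in LADs of both lists. Of 1113 olfactory receptor genes 1010 (90.7%) had their start in a preadipocyte LAD, 32 (2.88%) were released and 28 (2.52%) recruited. Of 322 vomeronasal receptor genes 299 (92.9%) were in preadipocyte LADs, 1 was released and 8 recruited. Of the few outside preadipocyte LADs, 28 of 103 olfactory (27.2%) and 8 of 23 vomeronasal genes (34.8%) were recruited, beside 2.40% of all genes. Among these olfactory genes, Olfr651 to Olfr659 form a run of 9 neighbours on chromosome 7 and Olfr665 to Olfr667 a run of 3. Neighbours in a run are not separate cases. Vmn1r58, Vmn2r28, Vmn1r61, Vmn1r62 and both entries for Vmn1r63 lie in 1 adipocyte LAD of 982 kb on chromosome 7. They are not separate cases. Trace amine and taste receptors had 9 of 53 released (16.98%) and none recruited, and 5 of these are Taar7 genes in a single vanished LAD of 62.3 kb on chromosome 10. Of the 36 starts of this list in preadipocyte LADs the released share was 25% (13.8 to 41.1). Beside it stood 16.9% of all genes and 26.6% without receptor and clone-named ones. These Taar7 genes were in neither list with LADs of at least 100 kb, as was Taar8b, already at 30 kb.

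Lectin-like immune receptors had 11 of 60 released (18.3%) and 1 recruited, with Clec1a, Clec1b, Clec7a and Clec9a together in 1 released edge of 115 kb on chromosome 6. With Clec12b they form a run of 5 adjacent released genes. Chemokines and their receptors had 6 of 58 released (10.3%) and 2 recruited. Of the starts in preadipocyte LADs the released share was 26.2% for lectin-like receptors (42 starts), 42.9% for chemokines (14), 26.7% for serpins (30) and 14.04% for cytochrome P450 genes (57), beside 16.9% of all genes and 26.6% without receptor and clone-named ones. Serpins had 8 of 60 released (13.3%) and 3 recruited, and cytochrome P450 genes 8 of 96 (8.33%) and 2. Beta-defensins (41 genes) and glucuronosyltransferases with sulfotransferases (38 genes) had none in either direction, although 25 and 24 of their starts were in preadipocyte LADs.

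**Figure D5:**
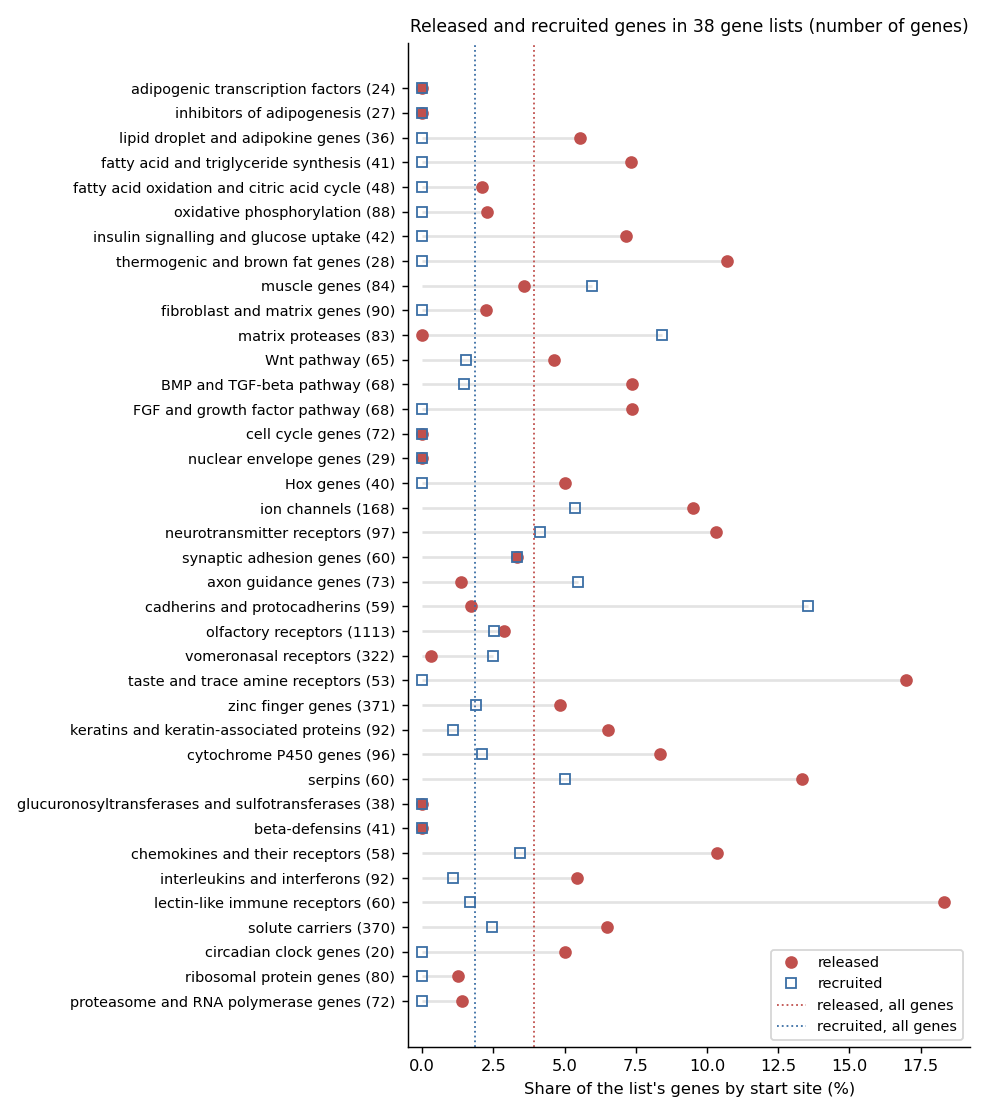
Share of the genes of 38 lists that were released (filled circles) or recruited (open squares) by start site, with the share over all 22367 genes as dotted lines at 3.94% and 1.84%. Lectin-like immune receptors have the highest released share, 18.3%, and cadherins the highest recruited share, 13.6%, and neighbouring genes of a family are not separate cases.

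The deepest switches mark single loci. Among named released genes they were Ispd (179 kb), Sostdc1 (111 kb), Cd36 (111 kb), Il20ra (94.6 kb), Dapk1 (93.2 kb), Axin2 (89.4 kb), Ildr2 (85.04 kb), Zfp873 (79.6 kb), Thumpd1 (75.7 kb) and Mael (69.6 kb). Ispd, needed to glycosylate dystroglycan, and Sostdc1 share 1 released edge of 359 kb on chromosome 12, and Ildr2 and Mael share 1 vanished LAD of 189 kb on chromosome 1. Il20ra, a cytokine receptor subunit, lay in a released edge of 191 kb with Il22ra2, and Dapk1, a kinase of cell death pathways, in a vanished LAD of 209 kb.

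On the recruited side the deepest, clone-named genes left out here as among the released, were Fam135b (209 kb), Ptprq (148 kb), Fam190a (143 kb), Eltd1 (131 kb), Rgs21 (122.97 kb), Prl2c5 (109 kb), Vwc2l (89.9 kb), Ddi1 (85.7 kb), Unc13c (83.8 kb) and Nlrp2 (83.2 kb). Fam135b (chromosome 15, 71276108 to 71558268, minus strand) was also the longest gene recruited whole, 282 kb in an internal stretch of 513 kb. Ptprq, a receptor phosphatase of hair cells of the inner ear, lay in the same adipocyte LAD of 2013 kb as Myf5. Eltd1, an adhesion receptor of endothelium, had its whole body of 107 kb recruited at an edge of 502 kb.

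Some neighbouring genes switched together, while 448 released genes (50.8%) and 222 recruited genes (53.9%) switched alone. The 882 released genes fell into 617 runs of adjacent genes, of which 57 held 3 genes or more (210 genes), and the 412 recruited genes into 293 runs, of which 27 did (102 genes). The longest released run held 12 genes on chromosome 11, Krtap4-6, a keratin-associated protein of hair, and 11 genes with clone names. A run of 6 around Krtap4-13, also on chromosome 11, was among the next longest. The longest recruited run held 9 olfactory receptor genes, Olfr651 to Olfr659, on chromosome 7. Next came 7 genes from Lce1e to Kprp, cornified envelope genes of skin, on chromosome 3, and then runs of 5, the vomeronasal receptors from Vmn1r61 on and the collagenase cluster.

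Chromosomes took different parts in it. On chromosome 11 released sequence summed to 6.56 Mb and recruited sequence to 2.81 Mb, with 65 and 20 genes. On chromosome 19 the lengths were 3.67 Mb and 1.27 Mb, and the genes 28 and 1. The single recruited gene there, Gm5244, has only a clone name. The X chromosome leaned the other way, with 5.77 Mb released, 10.3 Mb recruited, 38 genes released and 45 recruited. On chromosome 7 recruited genes (62) outnumbered released ones (42), and on chromosomes 8 and 12 released genes (40 and 46) far outnumbered recruited ones (7 and 6) at similar lengths of sequence.

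Single calls depend on the length of the LAD behind them. With LADs of at least 100 kb only, in both lists, 50.5% of released genes and 80.8% of recruited genes kept their state, since whole LADs shorter than that drop out. Among the fat metabolism genes 9 of 14 kept it, and Rbp4, Pck1, Elovl2, Pde3b and Grb10 were then in neither list. Of the other genes named with values above, Acvr1c, Bmp5, Bmp15, Fgf9, Fgf10, Igfbp2, Rspo4, Wif1, Thbs4, Myl1, Actn2, Myh4, Mmp7, Sema3e and Unc5a were also in neither list at that setting, Bmp5 and Unc5a already at 30 kb. With gaps under 50 kb closed, Ndufaf4, Kit, Rora, Ano5, Mfap5, Wif1, Pcdhb3, Pcdhb4 and Pcdhb5 were in both lists.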

How the data were processed

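3T3-L1 cells expressed Dam or LaminB1-Dam from lentivirus, and methylated DNA was amplified and sequenced. Per the labels and methods the authors mapped reads to mm9 with BWA, took log2 ratios of LaminB1-Dam to Dam per DpnI fragment and segmented them into LADs. The deposited files used here hold positions only (chromosome, start and end, no score). LAD intervals were compared in Python 3.11.15 (numpy 2.4.6, pandas 2.3.3, pysam 0.24.0, scipy 1.17.1, matplotlib 3.10.9) with GENCODE vM1 genes on mm9. Overlap of borders with GATC was used to check the build. Stretches in 1 list only were classed by contact with sequence in both lists. On simulated data 1200 of 1200 stretches were recovered. Members and gene lists were chosen with earlier results of these data known. Genes named were the 10 deepest switches and 5 longest whole switches per direction, switched members of each list (at most 6 for lists given as a pattern) and the 3 longest runs, and others are said to be chosen by their values. Alternatives varied LAD length, gap closing, margin, body overlap and receptor genes. Intervals are 95% Wilson. Differential regions deposited by the authors served as an alternative only, and LAD lists of the other conditions were not used. Some items are not reported here.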

Additional observations from a re-analysis of the deposited data

How the results depend on the processing

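Over 118 recomputed values of the counts, shares and medians of released and recruited sequence, 78 stayed within the limit set for each (within 1.5 times for a count, inside the interval for a share) and 40 moved. The order of some values turned. With LADs of at least 100 kb recruited outnumbered released neuronal and adhesion genes, 31 to 21. Without receptor and clone-named genes, recruited genes fell below genes in both lists in the share with at least 10 CG (20.6% against 24.4%) and in median length (22.6 kb against 24.0 kb), where they had been above. In gene starts per Mb, an alternative chosen after seeing the data, recruited stretches lay above sequence in both lists (2.29 against 1.71), where they had been below. With LADs of at least 100 kb in both lists, released genes fell to 578 by start (493 recruited) and 666 by body, the released share of preadipocyte LAD starts was 12.8% and the recruited share of the others 2.76%. Among recruited starts whole LADs then came before internal stretches. Internal stretches held 20.3% of recruited and 3.63% of released starts and made up 29.7% and 10.3% of stretches, and whole LADs held 22.1% and 44.1% of starts and made up 9.76% and 22.1% of stretches. With LADs of at least 30 kb, whole LADs were 12.1% of recruited and 32.3% of released stretches. With gaps under 10 kb closed, internal stretches held 49.0% of recruited starts and were 35.6% of recruited and 10.5% of released stretches. With gaps under 50 kb closed, internal stretches held 51.6% of recruited and 12.1% of released starts and were 27.3% and 6.26% of stretches, while whole LADs held 9.47% and 42.6% of starts and were 33.8% of released stretches. Counted by length, internal sequence was 46.1% of recruited and 10.7% of released sequence and whole LADs 18.2% and 50.7%. Among stretches of at least 10 kb, internal ones were 40.6% and 11.4% and whole LADs 20.7% and 45.6%. A margin of 10 kb left 498 released and 226 recruited genes, fewer by construction. Requiring the whole body in LAD left 644 released genes by body. The authors' own differential regions gave 688 recruited genes by body, and the cause was not tested. Without receptor and clone-named genes the median length was 27.7 kb for released and 22.6 kb for recruited genes, and the shares were 26.6% and 1.95%.

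Each condition is 1 pair of libraries, and the lists hold positions with no score, so the depth is unknown and neither the strength of a LAD nor its error between cultures can be given. A border near a gene start can move the call by 1 fragment. No paired analysis was possible because each condition has 1 replicate and no test was made. Expression was not measured in these files.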

Other observations

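Genes of other annotated types were placed in the same way. Of 1577 microRNA genes 55 were released (3.49%) and 65 recruited (4.12%), and 15 of the recruited ones lie in a single stretch on chromosome 7, without which 50 are left. Of 1273 lincRNA genes 50 were released (3.93%) and 18 recruited (1.41%), and of 5201 pseudogenes 294 (5.65%) and 195 (3.75%). Immunoglobulin V segments, 355 in all, had none released and 12 recruited.

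MicroRNA genes with a number rather than a prediction's name were 16 released and 16 recruited, and 13 and 15 of them matched a mature sequence in RefSeq (GRCm38.p6). The released ones included the Mir17 to Mir92-1 cluster, 6 genes of a growth-promoting transcript on chromosome 14 (mm9, 115442893 to 115443649). It lay in an internal stretch of 41.4 kb that left a long LAD, with depths of 20.1 to 20.7 kb. Mir206 and Mir133b, microRNAs of skeletal muscle, shared a recruited internal stretch of 26.3 kb on chromosome 1, with depths of 9.26 kb and 13.0 kb. Mir181a-1 and Mir181b-1 were recruited too, in an adipocyte LAD of 54.4 kb that had no counterpart in preadipocytes. The calls depend on the settings used for the protein-coding genes. The Mir17 and Mir206 stretches are gaps under 50 kb, which that gap closing would place in both lists. The LAD of Mir181a-1 and Mir181b-1 would drop out with LADs of at least 100 kb only. The main mature strands of these 3 clusters are shown so that shared seeds (bases 2 to 8, in capitals) can be read.
miR-17-5p: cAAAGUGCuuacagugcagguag
miR-20a-5p: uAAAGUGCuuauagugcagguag
miR-18a-5p: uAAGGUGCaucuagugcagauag
miR-19a-3p: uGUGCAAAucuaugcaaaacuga
miR-19b-3p: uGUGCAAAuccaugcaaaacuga
miR-92a-3p: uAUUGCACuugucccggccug
miR-206-3p: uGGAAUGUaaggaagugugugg
miR-133b-3p: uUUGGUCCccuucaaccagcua
miR-181a-5p: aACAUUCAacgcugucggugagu
miR-181b-5p: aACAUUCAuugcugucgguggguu
MiR-17-5p and miR-20a-5p share the seed AAAGUGC, miR-19a-3p and miR-19b-3p share GUGCAAA, and miR-181a-5p and miR-181b-5p share ACAUUCA. Members of a cluster share 1 stretch, so each cluster is a single case. These genes were chosen after their values had been seen.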
